A study of Mus musculus with 6 samples.

Results

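The EGR, NR4A and IER genes described here are 10 immediate early genes of mouse cardiac fibroblasts, namely Egr1, Egr2, Egr3, Nr4a1, Nr4a2, Nr4a3, Arc, Ier2, Ier3 and Ier5. They were taken by symbol from a table of 22063 genes, and all 10 were among the 12862 genes with enough reads to test. The set was chosen from results of the comparison reported below, so the difference between the groups is given for these genes as a description and carries no test.

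RNA was sequenced from 6 cultures of primary fibroblasts of the heart of Tet3 f/f mice, in which the gene for TET3, an enzyme that oxidises 5-methylcytosine in DNA, is flanked by loxP sites. In the GFP group (GFP1 to GFP3, genotype label Control) the cells received an adenovirus coding for GFP. In the CRE group (CRE1 to CRE3, genotype label Tet3 knockout) they received an adenovirus coding for Cre recombinase. All 6 cultures were treated with TGF-β, the cytokine that drives fibroblasts toward the myofibroblast state, and untreated cells are not analysed here. According to the paper the treatment lasted a day, so the levels below are not those of the first minutes after the stimulus. Both groups carried the floxed alleles and a virus, and only CRE carried Cre, so the loss of Tet3 and the presence of Cre cannot be told apart. The age and sex of the mice, and whether the cultures came from separate animals, are not given in the sources used here, so p-values measure the spread between these cultures.

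Immediate early genes are transcribed within minutes of a stimulus without new protein synthesis, and their mRNAs are usually short-lived. Serum response factor (SRF) with its ternary complex partners, which are phosphorylated by ERK, and CREB, which is phosphorylated after cyclic AMP or calcium signals, are the best known routes to their promoters. EGR proteins are zinc finger factors that bind GC-rich sites, and EGR1 is known in fibroblasts as a TGF-β-induced activator of matrix genes. NR4A proteins are orphan nuclear receptors that act without a known natural ligand, and NR4A1 is known as a brake on TGF-β signalling in fibroblasts.

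The promoters of 6 of the 10 genes (Egr2, Nr4a1, Nr4a2, Nr4a3, Ier3 and Ier5) were matched in RefSeq sequences of GRCm38.p6, each window running from 250 bases before to 50 bases after an annotated start. The following 4 are shown because they hold the site of an immediate early pathway, with that site in capitals and the rest of the sequence read 5′ to 3′ on the strand of the gene. For Egr2, chr10:67537619-67537868 on the plus strand, the capitals mark a CArG box, the SRF site. For the NR4A genes, they mark the core of the cyclic AMP response element, the 5 letters TGACG or, from the other strand, CGTCA. The NR4A stretches are chr15:101266596-101266845 on the plus strand for Nr4a1, chr2:57124004-57124253 on the minus strand for Nr4a2 and chr4:48045055-48045152 on the plus strand for Nr4a3, which ends where the first annotated exon begins.
Egr2: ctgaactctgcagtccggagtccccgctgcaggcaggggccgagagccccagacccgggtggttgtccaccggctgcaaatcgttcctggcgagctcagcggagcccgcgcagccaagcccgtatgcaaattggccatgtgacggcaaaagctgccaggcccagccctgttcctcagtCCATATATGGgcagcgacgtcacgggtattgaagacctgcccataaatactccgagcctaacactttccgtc
Nr4a1: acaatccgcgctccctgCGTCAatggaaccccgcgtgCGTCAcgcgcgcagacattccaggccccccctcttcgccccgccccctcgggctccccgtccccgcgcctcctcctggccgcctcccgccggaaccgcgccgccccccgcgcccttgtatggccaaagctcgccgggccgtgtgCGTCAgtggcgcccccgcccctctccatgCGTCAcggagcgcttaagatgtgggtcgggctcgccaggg
Nr4a2: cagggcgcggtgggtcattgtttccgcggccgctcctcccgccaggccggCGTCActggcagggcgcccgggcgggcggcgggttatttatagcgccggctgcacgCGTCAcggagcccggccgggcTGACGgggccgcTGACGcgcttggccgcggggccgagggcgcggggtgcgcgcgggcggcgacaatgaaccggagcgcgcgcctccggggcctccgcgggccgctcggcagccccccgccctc
Nr4a3: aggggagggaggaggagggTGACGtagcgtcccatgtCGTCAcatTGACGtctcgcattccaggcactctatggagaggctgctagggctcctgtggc
The window of each of the 3 NR4A genes held 4 such cores, all of them printed for Nr4a1 and Nr4a2 and 3 of them for Nr4a3. Among all 32851 promoter windows in the table, 20.8% held at least 1 core and 0.231% held at least 4, on either strand. The Egr2 window shown also held 2 cores, apart from its CArG box and left in lower case. No NR4A core overlapped another, and the full palindromic element TGACGTCA, which 1.79% of all windows held, was in none of the 3 windows. A CArG box was present in 4 of the 5 Egr2 windows, 3 of which overlap and share the box shown, and in none of the NR4A, Ier3 or Ier5 windows, against 1.63% of all windows. The EGR site, GCGTGGGCG or GCGGGGGCG on either strand, was found once, in Nr4a1, against 3.47% of all windows. Ier3 and Ier5 held none of these letters in their windows. These matches describe the sequence and do not show that a factor was bound.

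Tet3 itself was measured at 64.9, 54.4 and 52.0 CPM (reads scaled to a common library size) in GFP and at 34.5, 35.9 and 33.6 CPM in CRE, so every CRE library was below every GFP library. The difference, on the log2 scale, was -0.72 ± 0.08 (SE; edgeR's two-sided quasi-likelihood test, adjusted p = 5.36e-05), and CRE kept 60.8% of the GFP level over the whole gene. Total counts were between 17002126 and 20343590 per library, and 3 counts corresponded to 0.156 to 0.187 CPM. The 8 fibroblast markers, summed, were at 27619 to 28759 CPM in GFP and at 16738 to 18153 CPM in CRE, with 7 lower in CRE by the same test. Endothelial markers were also present and lower in CRE (summed 341.5 to 374.6 CPM against 171.2 to 194.5, with 5 of 6 lower), as were macrophage markers (57.7 to 65.8 CPM against 34.0 to 37.3, with 3 of 5 tested lower). Pericyte and smooth muscle markers summed to 65.5 to 72.4 CPM in GFP and 61.6 to 69.4 CPM in CRE, with 3 of 6 lower and 1 higher. Cardiomyocyte markers summed to under 1 CPM in every library, with Myh6 at 0. Fewer cells of a type and less RNA per cell cannot be told apart in these bulk cultures, and the part of cell composition in the values below was not tested.

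Expression of 9 of the 10 genes was higher in CRE in every library, and the median log2 fold change of the 10 was 1.22, beside 0.005 over all tested genes. A gene was called at an adjusted p under 0.05 (edgeR, Benjamini-Hochberg over all tested genes). By that rule 9 members were called higher, 0 lower and 1, Nr4a3, was not called. Of all tested genes, 25.5% were called higher and 25.7% lower, and 30.0% had all 3 CRE libraries above all 3 GFP libraries. The threshold of the study (unadjusted p under 0.05 and a fold over 1.5) was applied to the edgeR fit, where the study used DESeq. By it, 9 members passed as higher, all but Ier5, beside 7.52% of all tested genes. Since the members were picked on this contrast, these counts are descriptive.

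**Figure D1:**
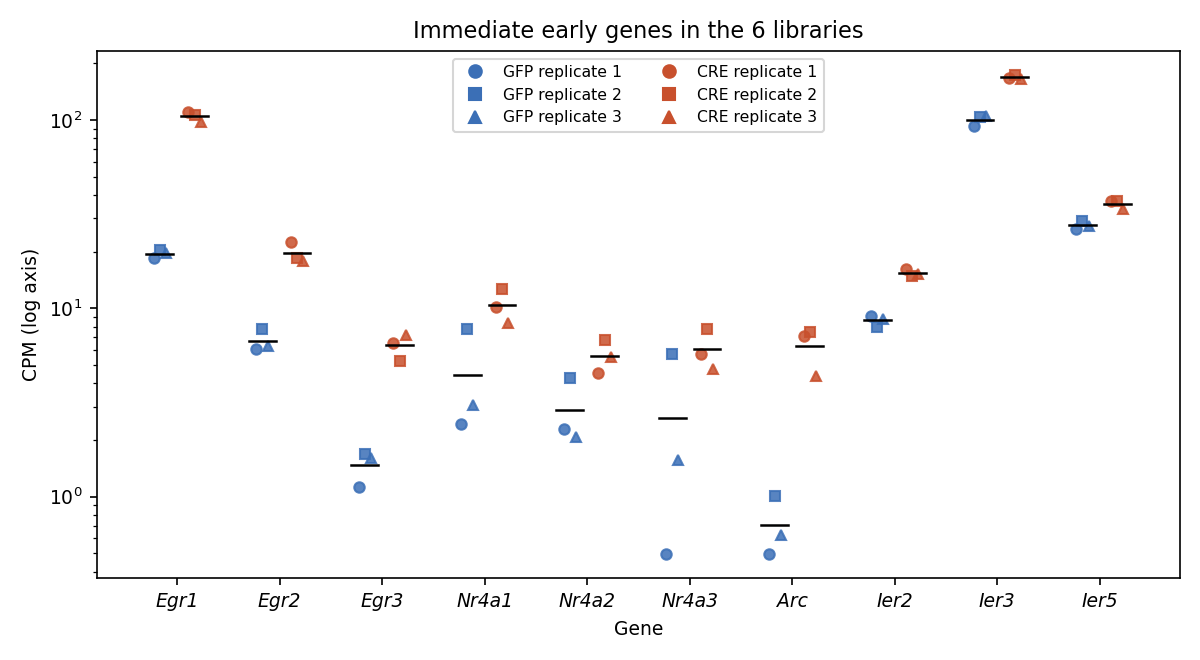
CPM of each of the 10 genes on a log axis in the 3 GFP (blue) and 3 CRE (orange) libraries, with the symbol shape giving the replicate number and the black bar the group mean. The CRE points lie above the GFP points for every gene except Nr4a3, whose GFP replicate 2, at 5.75 CPM, falls within the CRE range of 4.75 to 7.81 CPM.

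The 3 expressed EGR genes were all higher in CRE without overlap between the groups. Egr1 was measured at 18.5, 20.3 and 19.7 CPM in GFP and at 110.0, 106.0 and 97.4 CPM in CRE. The lowest CRE library was therefore far above the highest GFP library, with a fold of the group means of 5.35 and a log2 fold change of 2.42 ± 0.06 (SE). Egr3, a factor of muscle spindle development and of T cell activation, was at 1.12, 1.69 and 1.61 CPM in GFP and 6.55, 5.26 and 7.23 CPM in CRE. These values rest on 18 to 31 reads in each GFP library and 95 to 137 in each CRE library, and gave a log2 fold change of 2.09 ± 0.21. Egr2, best known for its role in hindbrain segmentation, was at 6.09, 7.78 and 6.29 CPM in GFP and 22.4, 18.6 and 17.8 CPM in CRE, without overlap. Its log2 fold change was 1.54 ± 0.13. Egr4, the remaining family member, was at 0 reads in all GFP libraries, had 1 to 3 reads in each CRE library, and was not tested.

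Arc had the highest log2 fold change of the 10. Arc is a cytoskeleton-associated protein best known from neuronal synapses, derived from a retrotransposon Gag gene. It was at 0.497, 1.01 and 0.623 CPM in GFP, or 8, 18 and 12 reads, and at 7.09, 7.48 and 4.38 CPM in CRE, or 132, 135 and 83 reads. All CRE libraries were above all GFP libraries, the fold of the means was 8.87 and the log2 fold change was 3.13 ± 0.30. Arc ranked 29 among all tested genes by log2 fold change, Egr1 ranked 62 and Egr3 ranked 91, and the other 7 members lay outside the highest 100.

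The IER genes are small intron-poor genes, and they changed less but with little spread. Ier3, a regulator of survival and NF-κB signalling, was at 92.3, 103.2 and 105.1 CPM in GFP and at 166.2, 173.8 and 165.7 CPM in CRE, a log2 fold change of 0.75 ± 0.06. Ier2, a nuclear protein, was at 9.14, 8.0 and 8.73 CPM in GFP and at 16.2, 14.8 and 15.2 CPM in CRE, a log2 fold change of 0.84 ± 0.09. Ier5, which promotes the activity of the heat shock factor HSF1, was at 26.4, 29.1 and 27.4 CPM in GFP and at 37.1, 36.9 and 33.8 CPM in CRE. The groups did not overlap for any of the 3 genes, and the log2 fold change of Ier5, 0.38 ± 0.07, was the lowest among the 10.

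**Figure D2:**
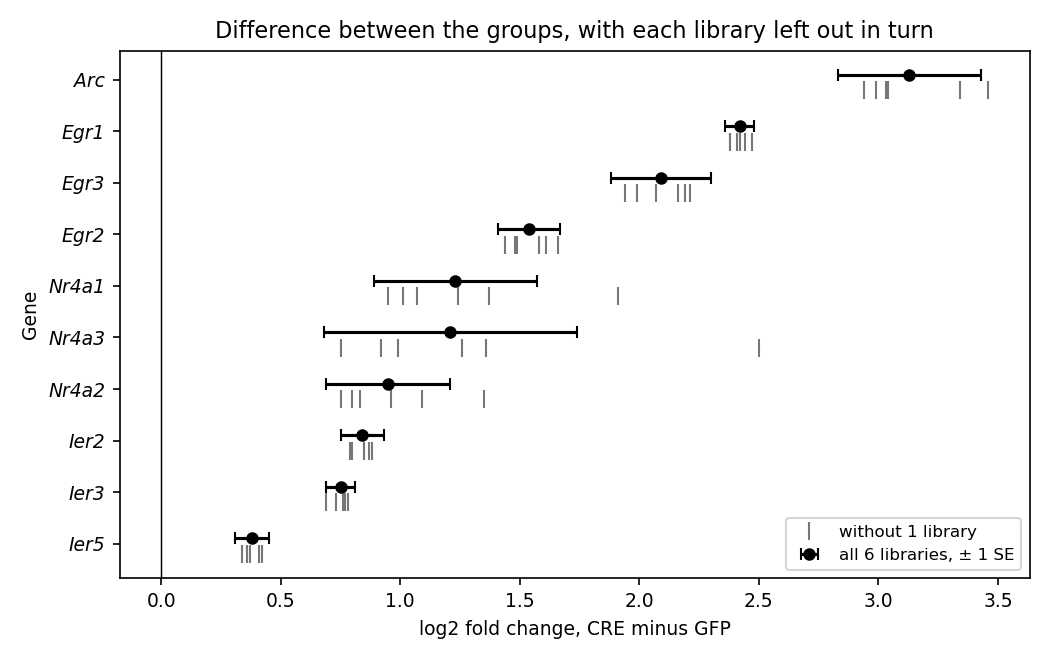
log2 fold change, CRE minus GFP, of each gene from all 6 libraries (points, with bars of 1 SE), above grey ticks for the same value with each library left out in turn. The ticks stay within 0.69 and 0.78 for Ier3 but spread from 0.75 to 2.50 for Nr4a3, where the far tick is the fit without GFP replicate 2.

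The NR4A genes were also higher on average in CRE, but differed strongly among the GFP libraries. Nr4a1 was at 2.42, 7.78 and 3.07 CPM in GFP and at 10.2, 12.7 and 8.34 CPM in CRE. GFP replicate 2 was thus just below the lowest CRE library, and the log2 fold change of 1.23 had an SE of 0.34 beside 0.06 for Egr1. Nr4a2, best known for its role in dopaminergic neurons, was at 2.30, 4.28 and 2.08 CPM in GFP and at 4.51, 6.76 and 5.54 CPM in CRE. Again GFP replicate 2 came close to the lowest CRE library without reaching it, and the log2 fold change was 0.95 ± 0.26. Nr4a3 was at 0.497, 5.75 and 1.56 CPM in GFP, or 8, 102 and 30 reads, and at 5.69, 7.81 and 4.75 CPM in CRE. Here GFP replicate 2 lay above 2 of the 3 CRE libraries, so the groups overlapped, and the log2 fold change was 1.21 ± 0.53.

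The spread within GFP was widest, among the 10 members, for the NR4A genes. After 0.5 reads were added to each count, the highest GFP library was 10.9 times the lowest for Nr4a3, 3.18 times for Nr4a1 and 2.05 times for Nr4a2. Ranges at least as wide were seen in 0.187%, 1.24% and 4.06% of all tested genes. Arc was at 1.97 times (4.56%), from 8 to 18 reads, Egr3 at 1.49 times (11.9%), from 18 to 31 reads, and Egr2 at 1.27 times (25.2%). These shares are over genes of all read depths, and low counts widen a range by counting noise alone. For Egr1 the same ratio was 1.10, a range that 65.0% of tested genes reached, and for Ier2, Ier3 and Ier5 it was 1.14, 1.14 and 1.10. In CRE the widest range among the members was that of Arc, at 1.7 times (6.11%). Nr4a3, Nr4a1 and Nr4a2 were at 1.64, 1.52 and 1.49 times there. GFP replicate 2 was the highest GFP library for all 3 NR4A genes, and CRE replicate 2 was the highest CRE library for all 3. The labels give no batch that these libraries share. GFP replicate 2 exceeded both other GFP libraries more than 2-fold in 46 tested genes (0.358%), Nr4a1 and Nr4a3 among them, a number equal to the 46 of GFP replicate 1 and above the 33 of GFP replicate 3.

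**Figure D3:**
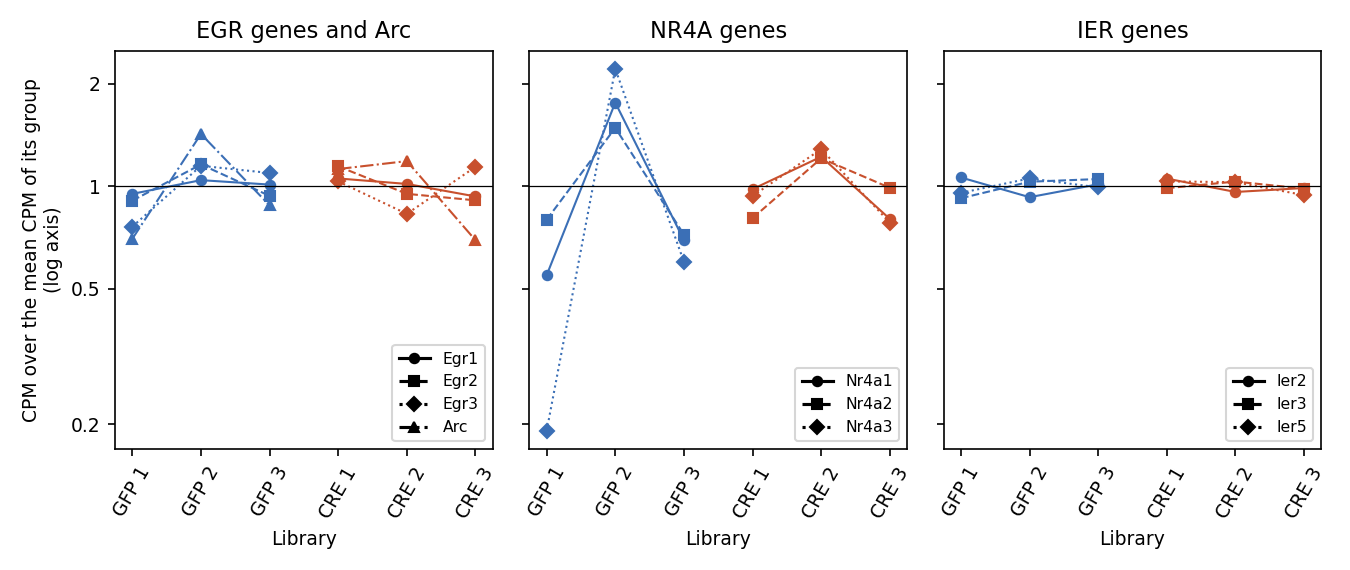
CPM of each gene divided by the mean CPM of its own group, on a log axis, for the 3 GFP (blue) and 3 CRE (orange) libraries, in panels for the EGR genes with Arc, the NR4A genes and the IER genes. Among the NR4A genes GFP 2 stands above GFP 1 and GFP 3, which for Nr4a3 were at 5.75, 0.497 and 1.56 CPM before division, while the IER panel stays close to 1.

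Leaving out single libraries moved only the NR4A calls. Without GFP replicate 2 the log2 fold changes of Nr4a1, Nr4a2 and Nr4a3 were 1.91 ± 0.22, 1.35 ± 0.23 and 2.50 ± 0.38, and all 3 were called. Without GFP replicate 3 they were 1.01 ± 0.37, 0.75 ± 0.28 and 0.92 ± 0.60, and none of the 3 was called. Nr4a1 was also not called by DESeq2, and Nr4a3 was called by limma-voom, with scaling to library size alone, in both fits on FPKM and with the replicate block. The other 7 members had the same call in every fit that tested them. These calls, too, are descriptive, because the members were picked on this contrast.

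Levels were compared between genes per length, as FPKM. In GFP the order of mean FPKM was Ier3 (83.7), Ier5 (7.98), Egr1 (5.73), Ier2 (5.35), Egr2 (2.38), Nr4a1 (1.94), Nr4a2 (0.806), Nr4a3 (0.438), Egr3 (0.355) and Arc (0.220). The ranges over libraries were separate between Ier3 and Ier5, between Ier5 and Egr1 and between Ier2 and Egr2, and each other pair of neighbours overlapped. In CRE the order was Ier3 (157.6), Egr1 (34.4), Ier5 (11.6), Ier2 (10.7), Egr2 (7.38), Nr4a1 (4.44), Arc (2.19), Egr3 (1.99), Nr4a2 (1.74) and Nr4a3 (1.13). Ier5 and Ier2 overlapped there, as did each pair of neighbours from Arc down to Nr4a3. Egr1 thus stood below Ier5 in GFP and above it in CRE, and Arc stood last in GFP and above Nr4a2 in CRE by its mean.

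The FPKM of Nr4a1 did not follow its counts in every library. Its FPKM was 1.68, 2.97 and 1.17 in GFP, so that GFP replicate 3 was lowest, whereas in CPM GFP replicate 1 was lowest. The transcript length implied by the ratio of scaled counts to FPKM was 1.36 kb in GFP replicate 1 and 2.48 to 2.49 kb in the other 5 libraries. For Egr2 it was 2.18 kb in GFP replicate 1 and 2.72 to 2.96 kb in the others, and for Egr3 it was 3.90 to 3.94 kb in GFP and 3.20 to 3.66 kb in CRE. For Nr4a3 it was 5.05 kb in GFP replicate 1 and 5.64 to 5.72 kb in the others. For Arc and the IER genes it was nearly the same in all libraries.

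The 10 genes are spread over 9 chromosomes of GRCm38, only Nr4a1 and Arc sharing one, and none overlaps another annotated gene. The EGR genes lie on the plus strand at chr18:34859823-34864984 (Egr1), chr10:67535475-67542188 (Egr2) and chr14:70077203-70082614 (Egr3), each with 2 exons in the longest coding transcript. Nr4a1 (chr15:101254269-101274795, plus), Nr4a2 (chr2:57106830-57124003, minus) and Nr4a3 (chr4:48045153-48086447, plus) each have 8 exons. Arc (chr15:74669083-74672570, minus) has 3, Ier2 (chr8:84661331-84662852, minus) and Ier5 (chr1:155096361-155099636, minus) have 1, and Ier3 (chr17:35821684-35822923, plus) has 2. Thus 7 of the 10 have at most 3 exons, beside 13.5% of tested genes, and the median tested gene has 9. The 3′ UTR of 8 members, all but Arc and Ier2, holds the AU-rich pentamer ATTTA, beside 71.1% of tested genes, and the nonamer TTATTTATT is in none of the 10, beside 8.4%.

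Genes around the members were read from 9 lists that together named 89 genes. Of the 87 tested, 39 were called higher and 21 lower in CRE by the same edgeR test. The list of other immediate early genes held 23 of the 39. Over all tested genes, 25.5% were called higher and 25.7% lower. With scaling to library size alone the split of the 87 was 51 higher and 15 lower, and on log2(FPKM + 1) it was 48 and 12. Among 33 other immediate early genes, 32 were tested, of which 23 were higher and 2 lower, with a median log2 fold change of 0.55, beside 25.5% higher, 25.7% lower and a median of 0.005 over all tested genes. Of the 23 calls, those of Klf4, Ptgs2 and Socs3 held in 10, 11 and 12 of 16 alternatives. Fosb, a subunit of AP-1, was at 0.435, 1.18 and 0.779 CPM in GFP and 7.95, 7.64 and 4.70 CPM in CRE, a log2 fold change of 3.05 ± 0.31 (adjusted p = 2.8e-05, edgeR). Atf3, a stress-induced factor, rose by 2.0 ± 0.12 on the log2 scale (adjusted p = 1.13e-06, edgeR), and Klf2, a Kruppel-like factor induced by ERK5 signalling, by 1.82 ± 0.13 (adjusted p = 3.13e-06, edgeR). Fos was at 2.86, 2.54 and 2.18 CPM in GFP and 6.39, 6.20 and 5.60 CPM in CRE, a log2 fold change of 1.27 ± 0.16 (adjusted p = 9.58e-05, edgeR). The 2 that were lower were Nfkbiz and Trib1, and 7 were not called, among them Myc and Sgk1; these 4 were named after their values were seen. The call for Trib1 (-0.32 ± 0.09) was lost with library size alone, on FPKM and without GFP replicate 3 (-0.41 to -0.26 over the fits without 1 library), and Myc was called with library size alone and on FPKM. Sgk1 was called without GFP replicate 1, with -0.24 to 0.05 over those fits.

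Of the activators upstream of these genes, Srf was at 30.3, 28.6 and 23.4 CPM in GFP and at 29.8, 26.7 and 27.7 CPM in CRE, with overlapping groups, a log2 fold change of 0.04 ± 0.09 and no call. Of the 6 genes for SRF and its partners, Mrtfa (0.44 ± 0.06, adjusted p = 0.000135, edgeR) and Elk3 (0.15 ± 0.05, adjusted p = 0.024, edgeR) were higher and Elk1 (-0.39 ± 0.09, adjusted p = 0.00461, edgeR) lower. The call for Elk3 was lost without GFP replicate 2 or 3 or CRE replicate 2, where its log2 fold change stayed between 0.12 and 0.18, and the call for Elk1 was lost with library size alone and on FPKM. Of 13 kinases of the ERK cascade, 2 were higher and 4 lower, with a median of 0.00, beside 25.5% higher and 25.7% lower over all tested genes. Rps6ka4 and Rps6ka5 encode MSK kinases that phosphorylate CREB and histone H3, and their log2 fold changes were of opposite sign, -0.63 ± 0.06 (adjusted p = 1.19e-05, edgeR) and 0.47 ± 0.11 (adjusted p = 0.00448, edgeR). Mapk3, which encodes ERK1, was lower at -0.41 ± 0.06 (adjusted p = 0.000219, edgeR).

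Of 8 CREB factors and coactivators, none was called higher and 3 were called lower, with a median of -0.15, beside the same 25.5% and 25.7% over all tested genes. Ep300, not called at 0.01 ± 0.05, was called higher with library size alone and on FPKM. Creb1 had a log2 fold change of -0.12 ± 0.07 and was not called, and its sign turned with library size alone and on FPKM. Atf1 was lower at -0.39 ± 0.06 (adjusted p = 0.000429, edgeR). Crebbp, the coactivator CBP, was lower at -0.32 ± 0.06 (adjusted p = 0.00152, edgeR), a call lost on FPKM. Crtc3 was lower at -0.18 ± 0.06 (adjusted p = 0.0289, edgeR), but kept its call in only 8 of 16 alternatives and lost it without GFP replicate 1 or 3 or CRE replicate 1 or 3, at -0.22 to -0.14 over the fits without 1 library.

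**Figure D4:**
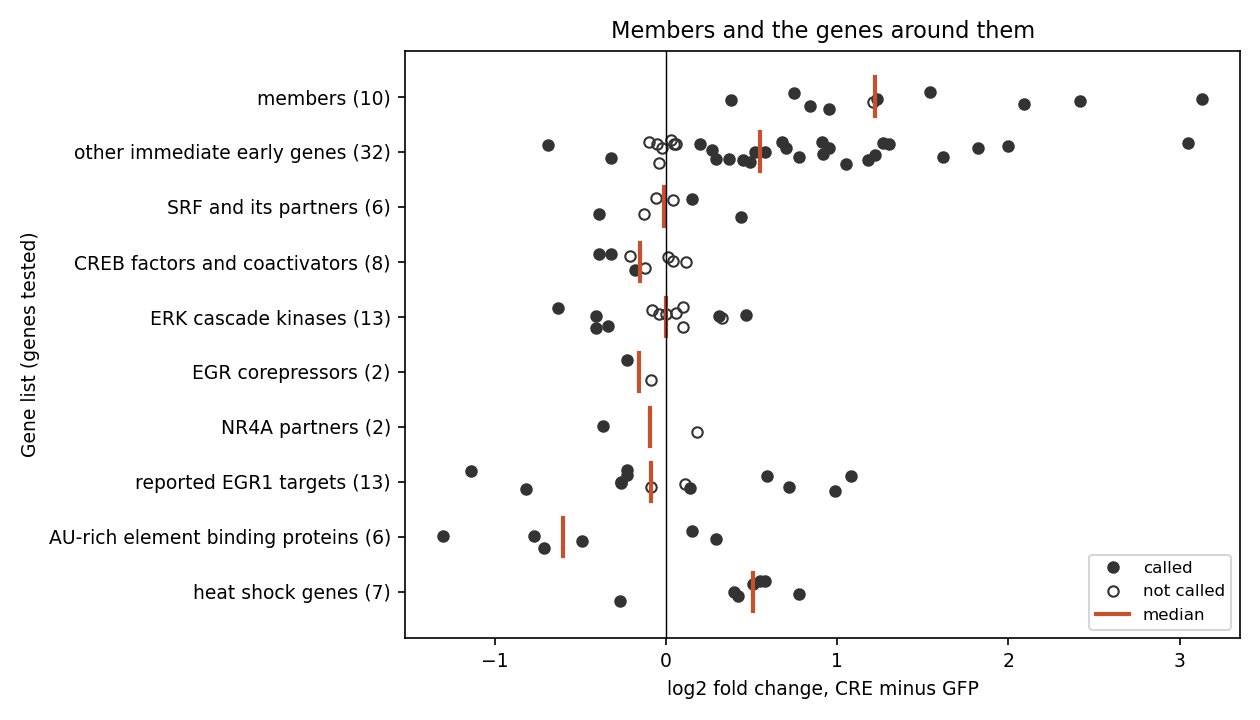
log2 fold change, CRE minus GFP, of every tested gene of the members and of the 9 lists, with the number tested in parentheses, filled points for called and open points for uncalled genes, and an orange bar at the median. The medians were 1.22 for the members, 0.55 for other immediate early genes, 0.51 for heat shock genes and -0.60 for AU-rich element binding proteins, and those of the remaining lists lie between -0.16 and 0.00.

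The partners and reported targets of the EGR and NR4A proteins were mixed. Nab1 and Nab2 encode corepressors that bind EGR proteins. Nab1, at -0.09 ± 0.06, was not called, and Nab2, itself a reported target of EGR1, was lower at -0.23 ± 0.05 (adjusted p = 0.00352, edgeR), a call lost with library size alone and on FPKM. Rxra, which encodes the retinoid X receptor that dimerises with NR4A1 and NR4A2, was lower at -0.37 ± 0.06 (adjusted p = 0.0003, edgeR), a call lost on FPKM. The other tested partner, Rxrb, was not called at 0.18 ± 0.08. It was called higher with library size alone, on FPKM and without CRE replicate 3. Of 13 reported EGR1 targets, 5 were higher and 5 lower, with a median of -0.09, beside 25.5% higher and 25.7% lower over all tested genes. Icam1, an adhesion molecule, was higher at 1.08 ± 0.05 (adjusted p = 4.21e-07, edgeR), as was the growth factor gene Fgf2 at 0.99 ± 0.10 (adjusted p = 1.89e-05, edgeR). Fn1, the gene for the matrix protein fibronectin, went the other way, from 17362, 15642 and 15408 CPM in GFP to 7556, 6872 and 7476 CPM in CRE, a log2 fold change of -1.14 ± 0.05 (adjusted p = 3.39e-07, edgeR).

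Proteins that bind AU-rich elements in the 3′ UTR and speed or slow the decay of such mRNAs were also measured. Of 6 genes, 2 were higher and 4 lower, with a median of -0.60, beside 25.5% higher and 25.7% lower over all tested genes. The higher genes were Zfp36, also in the list of immediate early genes, whose call was lost without GFP replicate 3 or CRE replicate 1 (0.23 to 0.36 over the fits without 1 library), and Elavl1, whose call held in 10 of 16 alternatives. Zfp36l1, a decay factor, was at 132.0, 171.2 and 154.7 CPM in GFP and at 58.5, 58.6 and 68.9 CPM in CRE, a log2 fold change of -1.30 ± 0.10 (adjusted p = 3.19e-06, edgeR). Its relative Zfp36l2 was lower at -0.71 ± 0.08 (adjusted p = 5.42e-05, edgeR), and Hnrnpd, which encodes AUF1, at -0.77 ± 0.05 (adjusted p = 1.44e-06, edgeR). Whether these values bear on the members was not tested, and mRNA levels do not separate synthesis from decay.

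Of 7 heat shock genes, 6 were higher and 1 lower in CRE, with a median of 0.51, beside 25.5% higher and 25.7% lower over all tested genes. Among the 6, the call for Hspa1a (0.4 ± 0.12) was lost without GFP replicate 3 or CRE replicate 2. Hsph1 (0.78 ± 0.07, adjusted p = 7.56e-06, edgeR) and Hspb1 (0.55 ± 0.07, adjusted p = 0.000109, edgeR) encode chaperones of the large and the small class. Hspa1b was higher at 0.58 ± 0.15 (adjusted p = 0.00826, edgeR), which is uncertain because Hspa1a and Hspa1b are nearly identical and counting may split their reads. The lower gene was Hspa8, the constitutive member, at -0.27 ± 0.04, a call lost on FPKM, and it was named after its values were seen.

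Genes with profiles like those of the outermost members were found by the root mean square difference of log2 CPM, centred on the mean of each gene, over the 6 libraries. For Arc, the nearest tested genes, among those averaging 10 CPM or more, were Il11 (0.323), Egr1 (0.412), Sema7a (0.571), Wnt9a (0.6) and Sfn (0.631), in log2 units. For Ier5, they were Rnf149 (0.0259), Bap1 (0.0287), Timm22 (0.0287), Pdcl (0.0293) and Prpf38a (0.0325). The log2 fold changes of these 5 genes were 0.35 to 0.41, beside 0.38 for Ier5. Those of the 5 nearest to Arc were 2.08 to 2.42, all below the 3.13 of Arc, so none was a close match. Arc itself averaged below the 10 CPM asked of the other genes, as did Fosb, whose CPM in each library was close to that of Arc.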

How the data were processed

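RNA-seq was performed on 6 libraries, 3 GFP and 3 CRE, grouped by sample title. In the study, reads were trimmed (Trimmomatic), aligned to GRCm38 (HISAT2) and counted per gene (HTSeq-count), and FPKM came from Cufflinks. Versions of these tools and the strand setting are not given in the sources used here, and labels and methods name different RNA and library kits. Unnormalized counts and FPKM for each library were deposited by the authors in 1 table, which also holds their group means, fold change, p-value and false discovery rate. Those columns were not used.

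The members, the gene lists and the tests were chosen with earlier results of these data known. Counts were tested in R 4.3.3 with edgeR 4.0.16 (filterByExpr with minimum count 10 and total 15, TMM scaling, two-sided quasi-likelihood test, Benjamini-Hochberg over 12862 genes, all 6 libraries, no covariate). SE is the absolute log2 fold change over the square root of F. CPM are counts scaled by library size and TMM factor to 1000000 reads. Alternatives were RLE, library size alone, upper-quartile scaling, 2 other filters, DESeq2 1.42.0, limma-voom and limma (3.58.1) on log2(FPKM + 1) and log2(FPKM + 0.1), a replicate block, leaving out each library, and the threshold of the study. On simulated counts for the 12862 genes, with 200 changed 1.5-fold up or 0.66-fold down, the test recovered 74.2% of the changed genes, and 8.43% of its calls were false. The 200 changed genes are far fewer than the 6583 called in the data, so these shares need not hold there. Replicate libraries differed beyond counting noise (chi-square per degree of freedom of 4.05 to 12.1), so none was a duplicate.

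Beside the members, the text names Tet3, up to 3 genes per list with the largest absolute log2 fold change among called genes whose groups do not overlap, 7 genes of the lists set in the rule (Srf, Elk1, Nab1, Nab2, Rxra, Fos and Creb1), and the 5 genes nearest to the outermost members. Outside this rule, and after their values were seen, it names Egr4, Myh6, Hspa1a, Nfkbiz, Trib1, Myc, Sgk1, Hspa8, Zfp36, Elavl1, Klf4, Ptgs2, Socs3, Ep300, Rxrb, Prss35, Clca2 and Slc6a12. Exons, 3′ UTRs and coordinates are from GENCODE M21. One result is left out here.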

Additional observations from a re-analysis of the deposited data

How the results depend on the processing

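Of 6583 genes called, 3277 were higher and 3306 lower. With library size alone, which shifted all differences by 0.16 in the median, 7612 were called, 5529 higher and 2083 lower, and on log2(FPKM + 1), with a shift of 0.15, 4976 were higher and 1916 lower. The threshold of the study, applied to the edgeR fit, gave 2290 calls in all and 27 pathway genes, beside 60 by the main rule. Fits without 1 library called between 5641 and 6517 genes, 7 to 10 members and 50 to 61 pathway genes, and gave Tet3 between -0.78 and -0.62. Over the other alternatives Tet3 was between -0.76 and -0.55, and 8 to 10 members were called. The correlations of deviations between GFP and CRE libraries of the same replicate number were 0.046, 0.18 and -0.0181. From so few libraries these low values cannot show whether replicate numbers pair the samples. With the replicate block, 6633 genes, 10 members and 61 pathway genes were called, and Nr4a3 (1.40 ± 0.40) gained its call. No member changed direction in any fit. On log2(FPKM + 1) the low levels of Arc, Egr3 and Nr4a3 gave smaller differences, down to 1.37, 1.14 and 0.60. With at least 10 counts in every library, Arc and Nr4a3 were not tested. For Arc, Egr3 and the NR4A genes, counts of 8 to 39 in the lowest library limit the precision.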

Other observations

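GFP replicate 2, where the NR4A genes were high, exceeded both other GFP libraries more than 2-fold in 46 tested genes. CRE replicate 2 was the highest CRE library in 24 of these 46 (52.2%), beside 33.5% of all tested genes, a description without a test. Apart from the members and a predicted gene, the 3 with the highest CPM in GFP replicate 2 were Prss35, Clca2 and Slc6a12, named after their values were seen. Prss35, a serine protease-like gene, was at 4.97, 24.3 and 7.53 CPM in GFP and at 3.55, 20.3 and 12.1 CPM in CRE. Clca2 was at 1.55, 5.30 and 2.60 CPM in GFP and at 2.20, 4.98 and 3.96 CPM in CRE. Slc6a12, a betaine and GABA transporter, was at 2.11, 4.68 and 1.97 CPM in GFP and at 4.08, 9.19 and 5.76 CPM in CRE. In the other 22 of the 46, CRE replicate 2 was not the highest CRE library.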
